A study of Mus musculus with 8 samples.

Results

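Quadriceps muscle of mdx mice was compared with quadriceps muscle of wild-type (WT) mice in 6 of the 8 RNA-sequencing libraries of a study of muscular dystrophy models. The mdx group held 15 male mice of the strain C57BL/10ScSn-Dmdmdx/J, which carry a mutation in Dmd. The WT group held 14 male mice of the strain C57BL/10ScSnJ, the background on which the mutation is kept, so both groups share that background, sex and an age of 8 weeks. The muscles were kept in RNAlater and total RNA was pooled, with 4 to 6 mice in a pool, which gave 3 mdx and 3 WT libraries. The labels do not assign single mice to pools. The other 2 libraries, from 11 dy2J mice on another strain, are not described here.

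The mdx mouse carries a mutation of the X-linked Dmd gene and lacks full-length dystrophin in its muscle fibres; it is the most used animal model of Duchenne muscular dystrophy. Dystrophin joins the actin cytoskeleton under the fibre membrane to a complex of membrane glycoproteins, and through them to laminin of the basement membrane. Without it fibres are easily injured by contraction, dead fibres are cleared by phagocytes, and satellite cells divide, fuse and build new fibres that first express embryonic isoforms of the contractile proteins. In mice this cycle is most active in young adults, and regeneration largely keeps pace with the loss of fibres in limb muscles.

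Expression is given as FPKM, which counts sequenced fragments per length of a gene's transcript and per library size, and values of single pools are listed in the order of pool 1, 2 and 3. Genes that reached 1 FPKM in 2 or more of the 6 libraries were tested with limma on log2(FPKM + 1), two-sided, and a gene was called when its Benjamini-Hochberg adjusted p over all 12647 tested genes was under 0.05. Fold changes are log2 values of mdx over WT on that scale with their standard error (SE), and they understate the change of genes at low FPKM. Each n is 3 pools a group, so the p-values rest on how pools vary, not on how single mice vary. An exact permutation test of 3 pools against 3 cannot give a p under 0.1. Summed FPKM ranged from 604701 to 732655 a library, the number of reads is unknown, and genes at 1 FPKM or more numbered 12071 to 12449 in mdx pools and 11499 to 11713 in WT pools. Across genes, log2(FPKM + 1) correlated at 0.978 to 0.982 between mdx pools, at 0.973 to 0.987 between WT pools and at 0.903 to 0.955 between the groups. An exact 0 in a gene that reached 10 FPKM in another library was treated as a failed estimate and left out. WT 1 listed at 0 all 179 genes of a stretch of chromosome 8 (119910360 to 124357323, GRCm38), among them Acta1, Cox4i1, Irf8 and Cdh15. Of these genes 59 were tested. Where a gene of the stretch stayed under 10 FPKM in every library, such as Cdh15, the 0 of WT 1 was kept as a value. Myh4, the most widespread fast myosin of mouse limb muscle, is not read here because mdx 1 and every WT pool list it at 0. Mitochondrially encoded genes, 25.9% to 35.7% of summed FPKM, are not read either.

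Dmd, the mutated gene, had 3.98, 4.26 and 5.50 FPKM in the mdx pools, against 30.2, 31.6 and 27.7 FPKM in the WT pools. The groups did not come near each other, and the mean was 4.58 ± 0.808 FPKM in mdx and 29.8 ± 2.01 FPKM in WT (SD, n = 3 each). Dmd fell by 2.47 ± 0.13 (SE) on the log2 scale (limma adjusted p = 4.77e-05), and it was called under every alternative tried, with -2.69 to -2.40 and limma adjusted p of 1.29e-05 to 0.00141.

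The difference between the groups reached across the transcriptome. Of 12647 tested genes 4346 were called (34.4%), 2880 of them higher in mdx (22.8%) and 1466 lower (11.6%). Groups did not overlap for 3990 genes with mdx higher (31.5%) and for 2430 with mdx lower (19.2%), called or not. Large changes were mostly rises. Folds are counted here on the log2(FPKM + 1) scale, which shrinks rises and falls of genes at low FPKM. A change of at least 2-fold was called for 809 genes higher (6.4%) and 149 lower (1.18%), and of at least 4-fold for 132 higher and 7 lower. On this scale 24 genes rose and 0 fell by at least 8-fold, as can be seen in the plot of mean expression. In plain FPKM folds can be larger. Slc15a5, for example, had 0.687, 0.284 and 0.562 FPKM in mdx pools, against 6.81, 5.40 and 10.7 FPKM in WT pools. The 10 largest rises among genes with no overlap, leaving out predicted and unnamed genes, were Spp1, Myl4, Tnni1, Mmp12, Sln, Tmem8c, Myh3, Gpnmb, Tnnt2 and Lgals3, and the 10 largest falls were Ppp1r1a, Slc15a5, Dmd, Dusp26, BC048679, Bdh1, Ces1d, Amd1, Efcab6 and Mettl21c.

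The number of rises against falls depended on how the libraries were scaled to each other. The median of all tested genes was 0.07 as deposited, -0.01 after rescaling by the median ratio and -0.07 after quantile normalization, a shift of -0.14. The calls split into 2456 higher and 2228 lower under the median ratio and 2062 higher and 2625 lower under quantile normalization, beside 2880 and 1466 as deposited. Without WT 2 the lower calls numbered 834, and without WT 3 they numbered 921. List medians below are to be read against the 0.07 of all genes, and counts of called members against 22.8% higher and 11.6% lower.

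**Figure D1:**
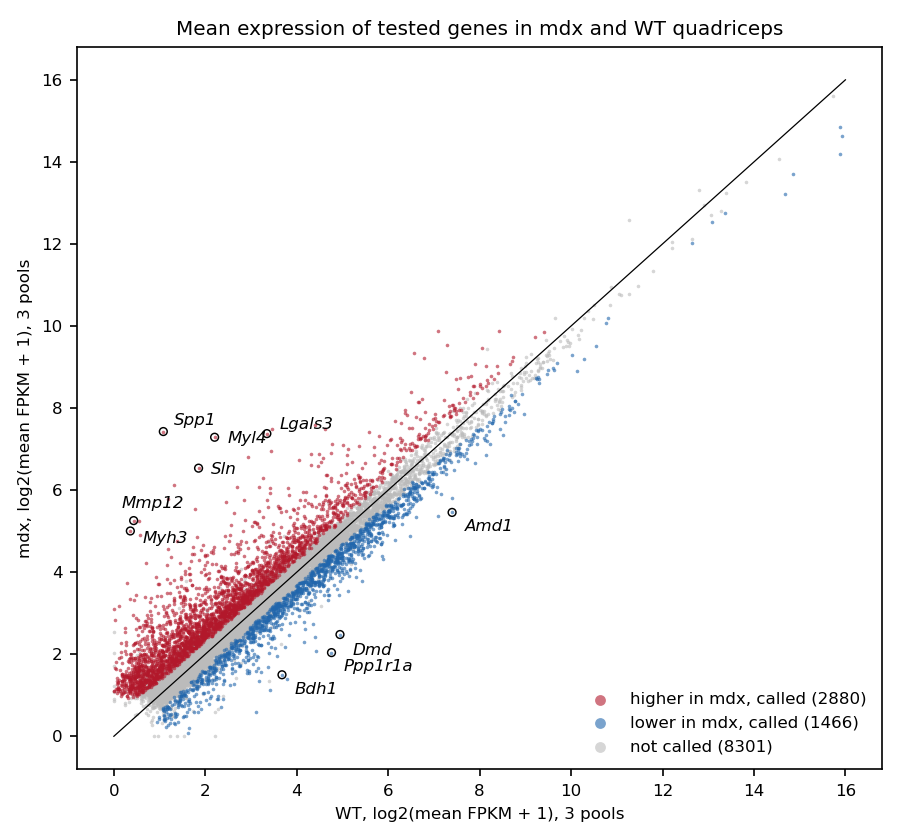
Each point is 1 of the 12647 tested genes, with log2(mean FPKM + 1) of the 3 mdx pools on the vertical axis and of the 3 WT pools on the horizontal axis; red points were called higher in mdx (2880), blue points lower (1466), and the line marks equal values. The circled genes far above the line, such as Spp1, Myl4 and Sln, lie farther from it than Dmd, Ppp1r1a, Bdh1 and Amd1 lie below it.

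Genes of new muscle fibres were among the strongest rises, with Myl4, Tnni1, Tmem8c, Myh3 and Tnnt2 making up 5 of the 10 largest. In bulk RNA of a whole muscle fewer cells of a type and less RNA per cell cannot be told apart, here and in all results below. All 12 embryonic and neonatal contractile genes listed were tested, 8 of them were called higher and 0 lower, and their median was 2.61. Myh3, the embryonic myosin heavy chain, had 15.6, 45.7 and 32.0 FPKM in mdx pools, against 0.168, 0.353 and 0.330 FPKM in WT pools. Even the lowest mdx pool lay far above the highest WT pool, and Myh3 rose by 4.52 ± 0.33 (limma adjusted p = 0.000194). Myh8, the perinatal heavy chain, had 21.8, 22.9 and 22.8 FPKM in mdx pools, against 1.08, 1.37 and 1.38 FPKM in WT pools, with almost no spread between the mdx pools (3.37 ± 0.10, limma adjusted p = 4.28e-06). Myl4, the embryonic and atrial light chain, reached 147, 156 and 163 FPKM in mdx pools, against 2.64, 4.51 and 3.67 FPKM in WT pools (5.10 ± 0.15, limma adjusted p = 4.28e-06).

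The troponins that embryonic fibres share with heart or slow fibres rose as well: Tnnt2, the cardiac troponin T, by 4.30 ± 0.19, Tnni1, the slow troponin I, by 4.80 ± 0.18, and Tnnc1, the slow and cardiac troponin C, by 3.12 ± 0.39. Smooth muscle actin Acta2, which embryonic muscle also expresses, had 36.9, 50.1 and 52.5 FPKM in mdx pools, against 14.7, 16.2 and 14.7 FPKM in WT pools (1.54 ± 0.14, limma adjusted p = 0.000506). Cardiac actin Actc1 was already abundant in WT muscle and its groups overlapped, with 1243, 754 and 1522 FPKM in mdx pools, against 1011, 793 and 608 FPKM in WT pools (limma adjusted p = 0.195).

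Many regulators of differentiation and proteins of myoblast fusion rose too. Among 22 listed genes, all tested, 12 were called higher and 1 lower, with a median of 0.70. Myog, the transcription factor that drives myoblasts into differentiation, had 18.99, 25.4 and 26.6 FPKM in mdx pools, against 2.09, 2.72 and 2.12 FPKM in WT pools (2.89 ± 0.15, limma adjusted p = 4.77e-05). Its partner Myod1 was highest in mdx 1, with 36.4, 26.4 and 21.0 FPKM in mdx pools, against 8.11, 8.87 and 7.14 FPKM in WT pools (1.65 ± 0.19, limma adjusted p = 0.000993). Tmem8c, now called myomaker, and Gm7325, now called myomixer, are the pair of membrane proteins that fuse myoblasts. Tmem8c had 23.6, 41.9 and 46.1 FPKM in mdx pools, against 0.279, 0.516 and 0.593 FPKM in WT pools (4.66 ± 0.23, limma adjusted p = 4.77e-05), and Gm7325 had 6.13, 11.99 and 9.503 FPKM in mdx pools, against 0.164, 0.454 and 0.240 FPKM in WT pools (2.95 ± 0.21, limma adjusted p = 0.000194). Both were near absent from WT muscle. The 1 fall was that of Mstn, the myostatin gene, whose product limits muscle growth, with 11.55, 11.04 and 16.01 FPKM in mdx pools, against 43.2, 39.1 and 43.4 FPKM in WT pools (-1.65 ± 0.15, limma adjusted p = 0.000434).

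Satellite cell genes moved less. Of 15 listed genes 13 were tested, 4 were called higher and 1 lower, and the median was 0.34. Higher calls numbered 3 where a mean of 5 FPKM was asked for. They numbered 6 with the chromosome 8 stretch of WT 1 set to missing. Cxcr4, a chemokine receptor, Fgfr4, a growth factor receptor of myoblasts, Vcam1, an adhesion protein, and Itga7, the laminin-binding integrin of muscle, rose by 0.97 to 1.96. Pax7, which defines satellite cells, had 1.08, 1.02 and 1.13 FPKM in mdx pools, against 0.745, 0.573 and 0.597 FPKM in WT pools. Its groups did not overlap, but at this low level it was not called (0.34 ± 0.12, limma adjusted p = 0.0627).

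Myogenic factors such as MyoD and myogenin bind the E-box CANNTG, which reads the same way on both strands. The 250 bases before the start of Myog, Chrng, Chrna1 and Myh3, all called higher, are printed 5′ to 3′ with each CANNTG in capitals, to show where these letters stand in genes that rose together; the sequences are RefSeq promoters on GRCm38.p6. They span chr1:134289754-134290003 (plus strand) for Myog, chr1:87205561-87205810 (plus strand) for Chrng, chr2:73580339-73580588 (minus strand) for Chrna1 and chr11:67078050-67078299 (plus strand) for Myh3. Chrng and Chrna1 encode the gamma and alpha subunits of the muscle acetylcholine receptor.
Myog: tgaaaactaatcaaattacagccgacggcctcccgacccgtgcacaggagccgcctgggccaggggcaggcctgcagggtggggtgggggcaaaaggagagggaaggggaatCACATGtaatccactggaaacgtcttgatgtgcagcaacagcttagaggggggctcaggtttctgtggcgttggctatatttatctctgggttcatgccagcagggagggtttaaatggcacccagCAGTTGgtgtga
Chrng: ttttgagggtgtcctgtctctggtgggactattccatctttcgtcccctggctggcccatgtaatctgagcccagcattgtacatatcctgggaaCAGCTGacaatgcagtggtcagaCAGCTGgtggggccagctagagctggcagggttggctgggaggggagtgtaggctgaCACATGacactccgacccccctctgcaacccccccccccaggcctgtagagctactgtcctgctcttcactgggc
Chrna1: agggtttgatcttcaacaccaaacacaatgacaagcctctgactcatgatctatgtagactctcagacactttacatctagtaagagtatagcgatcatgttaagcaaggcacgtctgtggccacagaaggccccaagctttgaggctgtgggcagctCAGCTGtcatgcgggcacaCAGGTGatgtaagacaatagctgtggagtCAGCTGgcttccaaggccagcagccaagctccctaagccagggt
Myh3: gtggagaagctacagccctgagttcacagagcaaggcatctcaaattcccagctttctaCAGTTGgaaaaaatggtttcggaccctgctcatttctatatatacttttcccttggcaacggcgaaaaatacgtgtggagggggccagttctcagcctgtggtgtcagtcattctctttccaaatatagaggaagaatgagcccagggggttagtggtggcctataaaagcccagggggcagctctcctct
Myog held 2 matches, 138 and 12 bases before the start, Chrng 3, Chrna1 3 and Myh3 1. CANNTG is a common string: 66.2% of the 32851 promoters in the RefSeq table held it in these 250 bases. It stood in 12 of 14 promoters of the embryonic contractile list (85.7%, 11 of 12 genes in the table), in 9 of 18 of the fusion and regulator list (50%, 12 of 22 genes) and in 14 of 20 of the neuromuscular junction list (70%, 14 of 19 genes). A match describes letters only, and several promoters can belong to 1 gene.

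**Figure D2:**
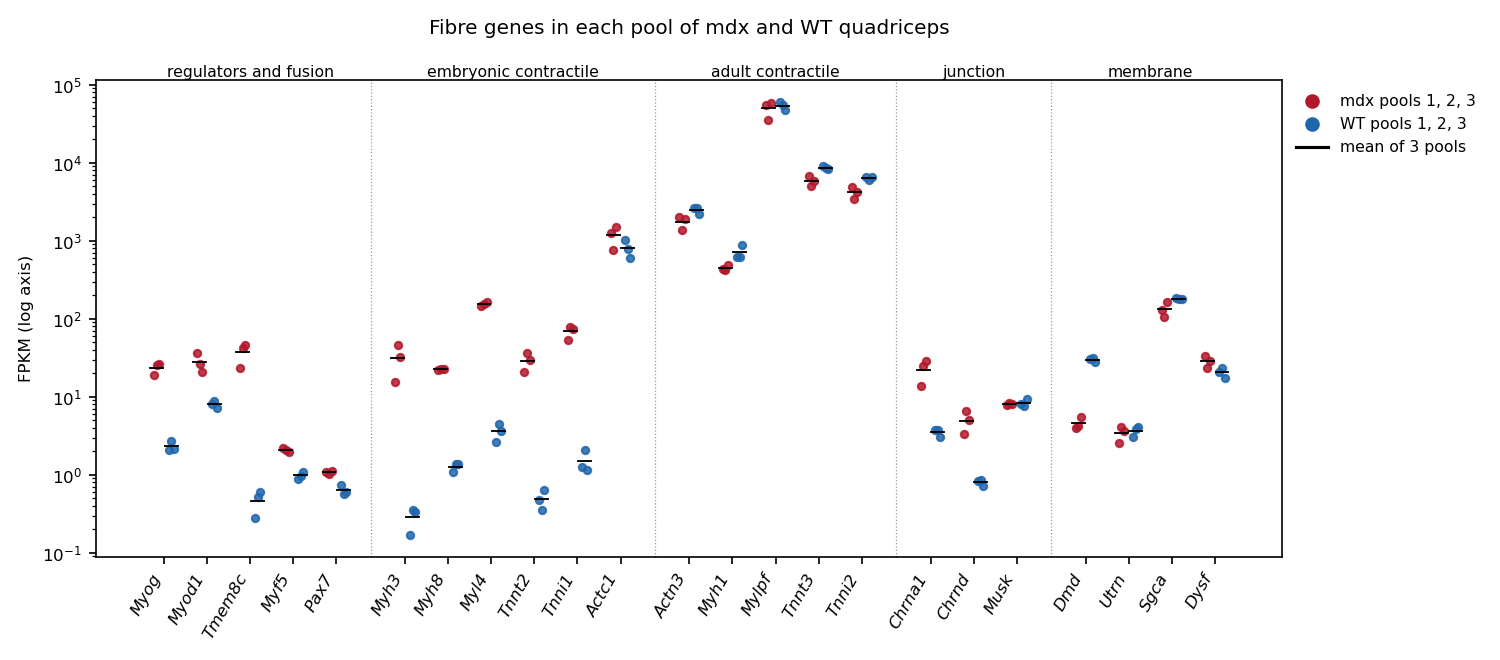
FPKM of fibre genes on a log axis, with the 3 mdx pools (red, left) and the 3 WT pools (blue, right) of each gene as points and the mean of each group as a bar. The embryonic contractile genes shown other than Actc1 stand 10-fold and more above WT, the adult contractile genes shown, Utrn, Sgca and Dysf differ far less between the groups, and Dmd stands below WT.

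Genes of the neuromuscular junction and of the response to denervation were read next, since fibres that are newly formed or cut off from their nerve re-express receptor subunits of fetal muscle. Of 19 listed genes, all tested, 9 were called higher and 1 lower (5 higher without WT 3), with a median of 0.17. Chrng, the fetal gamma subunit, had 4.66, 14.6 and 17.4 FPKM in mdx pools, against 0.266 and 0.157 FPKM in WT 2 and WT 3; WT 1 was listed at 0, treated as failed, so the fit used 2 WT values (3.28 ± 0.46, limma adjusted p = 0.0027). Chrna1 had 13.5, 24.6 and 28.5 FPKM in mdx pools, against 3.75, 3.74 and 3.06 FPKM in WT pools (2.30 ± 0.24, limma adjusted p = 0.000773). For both subunits mdx 1 was the lowest mdx pool and still above every WT value. The adult epsilon subunit Chrne did not follow, with 8.57, 5.36 and 11.2 FPKM in mdx pools, against 8.27, 8.21 and 6.87 FPKM in WT pools (limma adjusted p = 0.889). Musk, the receptor kinase that gathers acetylcholine receptors, and Rapsn, their anchor, were not called either. Ncam1, an adhesion protein of regenerating and denervated fibres, reached 88.4, 180 and 305 FPKM in mdx pools, against 15.3, 24.1 and 21.1 FPKM in WT pools (3.03 ± 0.40, limma adjusted p = 0.00154), and Runx1, a transcription factor induced by denervation, rose by 2.09 ± 0.19.

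Ion channels and pumps of the fibre membrane divided into rises and falls. Of 25 listed genes 23 were tested, with 6 called higher, 9 lower and a median of -0.32. Scn4a, the sodium channel of adult muscle, had 42.1, 37.3 and 44.9 FPKM in mdx pools, against 77.2, 84.8 and 79.1 FPKM in WT pools (-0.94 ± 0.11, limma adjusted p = 0.00106). Every mdx pool lay well below every WT pool. Clcn1, the chloride channel that steadies the fibre membrane, fell by 0.83 ± 0.17, and Abcc9, Kcnc4 and Kcnma1, which belong to potassium channels, fell by 0.66 to 0.74. Abcc9 also stands among the smooth muscle and pericyte markers given below, so its fall need not be one of fibres. Kcnn3, a calcium-activated potassium channel of denervated muscle, rose by 1.22 ± 0.13, and P2rx7, an ATP-gated channel also found on macrophages, by 0.98 ± 0.21.

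Most genes of the dystrophin-glycoprotein complex were not called. Of 24 listed genes 23 were tested, with 2 called higher (1 without mdx 1, mdx 3 or any 1 of the WT pools), 4 lower (7 under quantile normalization) and a median of -0.06. Nos1, the neuronal nitric oxide synthase that dystrophin holds at the membrane, had 3.99, 3.69 and 5.97 FPKM in mdx pools, against 11.8, 12.9 and 14.8 FPKM in WT pools (-1.37 ± 0.16, limma adjusted p = 0.00113). Sgcd, the delta-sarcoglycan gene, had 12.8, 14.8 and 13.2 FPKM in mdx pools, against 25.6, 25.01 and 26.4 FPKM in WT pools (-0.87 ± 0.10, limma adjusted p = 0.00098). Both stood clear of WT in all 3 pools. The other sarcoglycan genes and Dag1, which encodes dystroglycan, were not called: Dag1 had 55.1, 57.1 and 67.4 FPKM in mdx pools, against 59.6, 62.2 and 57.8 FPKM in WT pools. Utrn, the dystrophin relative utrophin, had 2.57, 4.13 and 3.59 FPKM in mdx pools, against 3.08, 3.90 and 4.08 FPKM in WT pools, with overlapping groups (-0.09 ± 0.16, limma adjusted p = 0.689). Sntb1, a syntrophin, rose by 0.95 ± 0.18. The other higher call was Pomgnt1, a listed glycosylation enzyme that is not part of the complex (0.34 ± 0.10, limma adjusted p = 0.0344).

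Adult contractile genes fell in part. Of 26 listed genes 23 were tested, with 4 called higher, 8 lower and a median of -0.48; lower calls numbered 5 without WT 1 and 4 without either WT 2 or WT 3, and higher calls 2, 1 and 2 without WT 1, WT 2 and WT 3. Myh2, the myosin heavy chain of fast oxidative fibres, had 26.6, 30.6 and 28.2 FPKM in mdx pools, against 80.9, 87.0 and 94.9 FPKM in WT pools (-1.59 ± 0.11, limma adjusted p = 0.000182). The slow light chains Myl2 and Myl3 fell by 1.06 ± 0.18 and 1.42 ± 0.32. Tnnt1, the slow troponin T, went the other way, with 17.2, 32.1 and 24.0 FPKM in mdx pools, against 2.89, 3.76 and 1.91 FPKM in WT pools (2.71 ± 0.24, limma adjusted p = 0.000442). Mylpf, the fast regulatory light chain, had 55520, 35780 and 57670 FPKM in mdx pools, against 60120, 55110 and 47000 FPKM in WT pools; it was not called (-0.15), but under quantile normalization it was called higher (0.76, limma adjusted p = 0.000614).

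Calcium handling showed the same mixture. Of 24 listed genes 23 were tested, with 3 called higher, 7 lower and a median of -0.24; the higher calls numbered 5 without mdx 2 or under quantile normalization. Sln, sarcolipin, a small inhibitor of the calcium pump of the sarcoplasmic reticulum, had 86.0, 63.7 and 125 FPKM in mdx pools, against 1.44, 3.17 and 3.23 FPKM in WT pools (4.67 ± 0.28, limma adjusted p = 0.000103). Every mdx pool lay far above every WT pool. Atp2a2, the slow and cardiac pump, rose by 1.44 ± 0.13, and Casq2, the slow and cardiac calsequestrin, by 1.42 ± 0.18. On the release side Ryr1, the ryanodine receptor, had 133, 127 and 152 FPKM in mdx pools, against 213, 282 and 241 FPKM in WT pools (-0.83 ± 0.14, limma adjusted p = 0.00374). Its voltage sensor Cacna1s fell by 0.73 ± 0.14, Stac3, which couples the 2 channels, by 0.83 ± 0.14, and Jph1, which holds the membranes of the triad together, by 0.72 ± 0.13. The fast pump Atp2a1, parvalbumin (Pvalb) and calsequestrin Casq1 were not called and their groups overlapped.

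Stretch-response and Z-disc genes fell more often than they rose: of 28 listed genes 27 were tested, with 4 called higher, 8 lower (5 without WT 2) and a median of -0.30. Xirp2, an actin-binding protein of the Z-disc, had 138, 126 and 150 FPKM in mdx pools, against 319, 300 and 281 FPKM in WT pools (-1.12 ± 0.12, limma adjusted p = 0.000773). Ankrd1, a nuclear and sarcomeric protein induced by injury, had 153, 79.0 and 59.1 FPKM in mdx pools, against 5.85, 34.0 and 16.7 FPKM in WT pools (2.48 ± 0.57, limma adjusted p = 0.0121). Ankrd1 differed almost as widely within WT as between the groups, a pattern that returns below for other injury genes. Ligases of muscle atrophy were not called: Trim63 had 96.9, 62.1 and 61.5 FPKM in mdx pools, against 59.2, 116 and 75.5 FPKM in WT pools, and Fbxo32 had 28.2, 32.8 and 35.8 FPKM in mdx pools, against 30.9, 40.9 and 35.5 FPKM in WT pools. In the list of atrophy ligases and FoxO targets, with 23 genes, 22 were tested and the median was -0.15. Of these 3 were called higher and 2 lower (0 lower without mdx 1, WT 2 or WT 3, and 6 under quantile normalization). The largest rises were those of the metallothioneins Mt2 (3.19 ± 0.66) and Mt1 (2.42 ± 0.49), which are no ligases. Both genes also count among the oxidant-producing and antioxidant genes below.

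Cytoskeletal genes rose more often than they fell. Of 28 intermediate filament, tubulin and linker genes 26 were tested, with 16 called higher, 5 lower and a median of 0.74. Tmsb10, an actin-binding thymosin, had 119, 230 and 189 FPKM in mdx pools, against 21.4, 24.6 and 25.2 FPKM in WT pools (2.82 ± 0.22, limma adjusted p = 0.000286). Tubb6, a beta-tubulin, had 61.3, 76.4 and 56.6 FPKM in mdx pools, against 11.4, 15.9 and 11.9 FPKM in WT pools (2.23 ± 0.16, limma adjusted p = 0.000194). Vim, the vimentin of mesenchymal and immune cells, rose by 1.41 ± 0.25. Of the 16 higher genes 13 were highest in mdx 2, beside 1661 of all 2880 genes called higher. Counts for mdx 2 in the lists below are to be read against that share. Plec, the linker plectin, and Synm, the filament protein synemin, fell by 0.92 ± 0.15 and 0.82 ± 0.11, and Des, the filament protein desmin of mature fibres, was not called. Genes of membrane repair numbered 23, of which 22 were tested, 12 called higher and 1 lower, with a median of 0.45. Anxa1, an annexin that gathers at torn membrane, had 97.1, 152 and 133 FPKM in mdx pools, against 27.1, 31.5 and 42.0 FPKM in WT pools (1.89 ± 0.21, limma adjusted p = 0.000884). Anxa2, Anxa4, Anxa5 and Anxa7 rose by 0.94 to 1.52, while Dysf, dysferlin, was not called and Capn3, the muscle calpain, fell by 0.73 ± 0.16.

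Several proteins come in an isoform typical of adult muscle and another that is widely expressed or found in heart and immature muscle. FPKM are per length, so the share of the other isoform in the summed FPKM of a pair can be compared between pools; the 10 pairs were picked after their values had been seen and are a description. In all 10 the share of the other isoform was higher in every mdx pool than in any WT pool. Among enolases Eno1 made up 4.10%, 6.24% and 5.16% in mdx pools, against 1.57%, 1.84% and 1.72% in WT pools, beside the muscle form Eno3. Cox6a1 made up 8.20%, 13.3% and 9.69% of the cytochrome c oxidase subunit pair in mdx pools, against 2.74%, 3.44% and 3.68% in WT pools, beside Cox6a2. The widest shift in percentage points was that of alpha-tubulin Tuba1b, with 38.9%, 49.6% and 37.9% in mdx pools, against 6.23%, 8.80% and 9.15% in WT pools, beside Tuba8. Hexokinase Hk1 made up 7.46%, 11.3% and 6.45% in mdx pools, against 2.55%, 2.44% and 2.79% in WT pools, beside Hk2. The muscle form stayed the larger part of every pair in every pool, and mdx 2 had the highest share of the other isoform among the mdx pools throughout.

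Extracellular matrix genes formed a broad group of moderate rises. All 29 fibrillar collagen and collagen processing genes were tested, 22 were called higher and 0 lower, and the median was 0.77. Col1a1, a chain of collagen I, had 176, 226 and 207 FPKM in mdx pools, against 70.2, 76.7 and 63.3 FPKM in WT pools (1.52 ± 0.13, limma adjusted p = 0.00043). Col3a1, collagen III, had 588, 740 and 789 FPKM in mdx pools, against 282, 281 and 236 FPKM in WT pools (1.396 ± 0.15, limma adjusted p = 0.000884). The 3 chains of collagen VI rose less, Col6a1 by 0.79 ± 0.11, Col6a2 by 0.77 ± 0.10 and Col6a3 by 1.09 ± 0.12, and of the cross-linking enzymes Loxl1 rose by 1.24 ± 0.09 and Lox by 0.96 ± 0.22. Basement membrane genes moved little: of 19 genes, all tested, 4 were called higher and 1 lower, with a median of 0.20, and without WT 1 none was called higher (0), while 2 were called higher without mdx 3, WT 2 or WT 3.

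Matricellular proteins, which modulate cells more than they build fibres, held larger changes. Of 30 listed genes 29 were tested, with 18 called higher, 1 lower and a median of 0.67. Spp1, osteopontin, made by macrophages and regenerating muscle, had 57.7, 398 and 58.0 FPKM in mdx pools, against 0.700, 1.77 and 0.879 FPKM in WT pools. Mdx 2 stood far above the other mdx pools, all 3 stood far above WT, and Spp1 had the largest rise among named genes (5.75 ± 0.67, limma adjusted p = 0.00107). Postn, periostin, had 114, 149 and 108 FPKM in mdx pools, against 7.18, 9.26 and 13.1 FPKM in WT pools (3.54 ± 0.21, limma adjusted p = 8.89e-05). Tnc, tenascin C, rose by 1.74 ± 0.30, Fn1, fibronectin, by 1.35 ± 0.19 and Bgn, biglycan, by 1.48 ± 0.17, whereas Dcn, decorin, was not called and its groups overlapped.

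Proteases and their inhibitors changed on both sides. Of 18 matrix metalloproteinases and inhibitors 16 were tested, with 10 called higher, 2 lower and a median of 0.76. Mmp12, the macrophage elastase, had 18.2, 56.3 and 37.2 FPKM in mdx pools, against 0.328, 0.272 and 0.450 FPKM in WT pools (4.69 ± 0.34, limma adjusted p = 0.000194). Mmp14, a membrane-bound collagenase, had nearly the same value in each pool of a group, 25.9, 26.3 and 26.9 FPKM in mdx, against 7.24, 7.65 and 7.58 FPKM in WT (1.69 ± 0.09, limma adjusted p = 4.77e-05). The inhibitors went in opposite directions. Timp1 had 61.6, 57.5 and 34.5 FPKM in mdx pools, against 1.27, 8.04 and 4.14 FPKM in WT pools (3.42 ± 0.46, limma adjusted p = 0.00162), while Timp3 had 17.7, 21.0 and 25.4 FPKM in mdx pools, against 36.0, 51.8 and 57.5 FPKM in WT pools (-1.13 ± 0.19, limma adjusted p = 0.00401). Of 22 ADAM and ADAMTS protease genes 21 were tested, 11 called higher and 0 lower, with a median of 0.48. Adam8, found on leukocytes, rose by 2.63 ± 0.38 and Adam12, found on regenerating muscle and mesenchymal cells, by 1.12 ± 0.20.

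Serpins, inhibitors of serine proteases, were called higher in 7 and lower in 1 of 13 tested genes (16 listed, median 0.64). Serpina3n had 68.2, 66.0 and 65.1 FPKM in mdx pools, against 2.46, 6.87 and 7.09 FPKM in WT pools (3.48 ± 0.30, limma adjusted p = 0.000414). The mdx pools were almost equal, and WT 1 was the lowest library. Ligands and inhibitors of the TGF-beta family numbered 29, with 24 tested, 5 called higher, 4 lower and a median of 0.10 (-0.01 under quantile normalization); higher calls numbered 3 without mdx 2 or WT 1, and lower calls 2 without WT 1 or WT 2. Tgfb1 had 10.5, 18.8 and 11.9 FPKM in mdx pools, against 3.03, 4.92 and 4.30 FPKM in WT pools (1.51 ± 0.22, limma adjusted p = 0.00222), and Bmp6 fell by 0.87 ± 0.16. Wnt pathway genes numbered 30, with 21 tested, 6 called higher, 6 lower (10 under quantile normalization) and a median of -0.14. The secreted Wnt inhibitors divided, with Sfrp1, Sfrp2 and Sfrp4 higher by 0.77 to 1.45 and Sfrp5 and Frzb lower by 0.78 and 1.32, and the ligands Wnt4 and Wnt5a fell by 0.59 and 0.68.

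Immune genes rose in large numbers, and most of them peaked in the same pool. Of 15 macrophage markers, all tested, 14 were called higher and 0 lower, with a median of 2.20, and their summed level was 871, 1740 and 1117 FPKM in mdx pools, against 182, 215 and 210 FPKM in WT pools. Every one of the 14 was highest in mdx 2. Cd68, a lysosomal protein of macrophages, had 46.2, 122 and 66.2 FPKM in mdx pools, against 7.09, 8.71 and 9.88 FPKM in WT pools (2.94 ± 0.31, limma adjusted p = 0.000773). Mpeg1, a pore-forming protein of macrophages, rose by 3.65 ± 0.32, and the resident macrophage receptors Mrc1 and Cd163 were at the low end: Mrc1 rose by 1.39 ± 0.18, and Cd163 was not called, with 4.43, 6.44 and 6.06 FPKM in mdx pools, against 3.07, 5.15 and 4.85 FPKM in WT pools.

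Phagocytosis and lysosome genes numbered 34, all tested, with 29 called higher, 0 lower and a median of 1.43. Gpnmb, a glycoprotein of lipid-loaded macrophages and regenerating tissue, had 23.6, 89.7 and 48.4 FPKM in mdx pools, against 0.966, 1.56 and 1.27 FPKM in WT pools (4.41 ± 0.40, limma adjusted p = 0.000449). Ctss, a cathepsin of antigen-presenting cells, had 110, 280 and 144 FPKM in mdx pools, against 8.81, 11.8 and 9.28 FPKM in WT pools (3.93 ± 0.31, limma adjusted p = 0.000279). Trem2, a lipid receptor of macrophages, rose by 3.45 ± 0.27. Lgals3, galectin-3, which marks injured lysosomes and activated macrophages and stands on none of the lists, had 110, 249 and 137 FPKM in mdx pools, against 6.55, 11.4 and 9.59 FPKM in WT pools (3.97 ± 0.30, limma adjusted p = 0.000251). Widely expressed lysosomal genes moved less or not at all: Lamp2 rose by 0.61 ± 0.10, and Lamp1 had 235, 250 and 234 FPKM in mdx pools, against 228, 240 and 234 FPKM in WT pools. Of the 29 higher genes 28 were highest in mdx 2. The part of macrophage RNA in these values was not tested.

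Receptors, chemokines and complement followed. Of 33 Fc, Toll-like and C-type lectin receptor genes 31 were tested, 27 called higher and 0 lower, with a median of 1.68; Fcgr4, an activating Fc receptor, rose by 2.51 ± 0.20, Clec7a, the fungal receptor dectin-1, by 2.48 ± 0.24, and Tlr7, a receptor of single-stranded RNA, by 2.17 ± 0.30, but Tlr3 and Tlr5 were not called. Of 31 chemokine and receptor genes 28 were tested, 19 called higher and 1 lower, with a median of 1.30. Ccl8, an attractant of monocytes, was even across pools, with 51.5, 52.6 and 55.9 FPKM in mdx, against 4.89, 6.02 and 7.65 FPKM in WT (2.94 ± 0.15, limma adjusted p = 4.77e-05). Ccl2, another attractant of monocytes, was uneven, with 21.9, 22.8 and 6.09 FPKM in mdx pools, against 1.39, 5.88 and 1.64 FPKM in WT pools; mdx 3 and WT 2 all but met (2.16 ± 0.54, limma adjusted p = 0.0171), and its highest adjusted p among the alternatives was 0.0636. Cxcl12, the stromal ligand of Cxcr4, was not called.

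Complement genes numbered 23, of which 22 were tested, 17 called higher and 0 lower, with a median of 1.008. The genes of C1q, which starts the classical pathway and is made by macrophages, rose together, C1qa by 2.20 ± 0.18, C1qb by 2.36 ± 0.20 and C1qc by 2.12 ± 0.20. Cfb, factor B of the alternative pathway, had 13.7, 17.9 and 17.2 FPKM in mdx pools, against 3.07, 4.54 and 5.22 FPKM in WT pools (1.72 ± 0.17, limma adjusted p = 0.000707), and the inhibitor Cd59a was not called. Of 39 interleukin and TNF family genes 31 were tested, 18 called higher and 2 lower, with a median of 0.85; Il1rn, the interleukin-1 receptor antagonist, had 3.58, 12.8 and 2.78 FPKM in mdx pools, against 0.0211, 0.939 and 0.245 FPKM in WT pools (2.20 ± 0.47, limma adjusted p = 0.00904). Lifr, a receptor of leukemia inhibitory factor, fell by 0.89 ± 0.11. S100 genes, which encode small calcium-binding proteins, were called higher in 6 and lower in 0 of 9 tested genes (10 listed, median 1.08).

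Neutrophil markers turned on single pools. Of 10 listed genes 7 were tested and 0 were called by limma, with a median of 1.20, but 3 were called higher without WT 2 and 2 without mdx 3. Their summed level was 96.6, 50.7 and 13.6 FPKM in mdx pools, against 4.36, 48.7 and 7.05 FPKM in WT pools, so WT 2 reached the middle of the mdx pools. Ly6g, Ngp and Camp, which define neutrophils, were at or near 0 in all 6 libraries. S100a8, an alarmin abundant in neutrophils, made up much of that sum, with 49.3, 22.7 and 5.42 FPKM in mdx pools, against 1.25, 24.6 and 2.76 FPKM in WT pools (1.72 ± 0.97, limma adjusted p = 0.207), and without WT 2 it was called (2.76, limma adjusted p = 0.0343).

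Oxidant-producing and antioxidant genes showed a divided picture, with 12 higher, 3 lower and a median of 0.18 over 26 tested genes of 27 listed (6 lower without mdx 3, 5 under quantile normalization or the median ratio). Cybb, the catalytic subunit of the phagocyte NADPH oxidase, had 7.09, 21.4 and 12.7 FPKM in mdx pools, against 1.83, 1.74 and 1.79 FPKM in WT pools (2.28 ± 0.31, limma adjusted p = 0.00176). Its partners Ncf1 and Ncf4 rose by 1.70 and 1.89. Sod2, the mitochondrial superoxide dismutase, had 66.7, 55.2 and 89.8 FPKM in mdx pools, against 116, 114 and 115 FPKM in WT pools (-0.73 ± 0.17, limma adjusted p = 0.0133), while Gpx1, glutathione peroxidase, rose by 1.44 ± 0.11.

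Nearly all interferon response and antigen presentation genes rose. All 37 listed genes were tested, 34 were called higher and 0 lower, and the median was 1.03. H2-Aa, a class II histocompatibility chain, had 162, 163 and 185 FPKM in mdx pools, against 45.0, 54.1 and 41.4 FPKM in WT pools (1.84 ± 0.13, limma adjusted p = 0.000193). H2-Ab1, H2-Eb1 and Cd74, the chaperone of class II, rose by 1.59 to 1.75, with little spread between mdx pools. Among interferon-induced genes Bst2, which tethers budding viruses, had 20.9, 27.6 and 21.7 FPKM in mdx pools, against 8.22, 7.92 and 7.03 FPKM in WT pools (1.48 ± 0.13, limma adjusted p = 0.000431). Isg15, a ubiquitin-like protein, had 6.20, 6.32 and 3.91 FPKM in mdx pools, against 1.92, 1.996 and 2.30 FPKM in WT pools (1.05 ± 0.17, limma adjusted p = 0.00294). Rsad2 and Ifit2, which also follow interferon, were not called.

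Interferon-induced promoters often carry a response element of a pair of GAAA set apart by any 2 bases, searched here on both strands. The 250 bases before the start of Isg15, chr4:156200819-156201068 (minus strand), and of Bst2, chr8:71537473-71537722 (minus strand), are printed 5′ to 3′ from the RefSeq promoters on GRCm38.p6 with the element in capitals, since both genes were called higher and carry overlapping copies.
Isg15: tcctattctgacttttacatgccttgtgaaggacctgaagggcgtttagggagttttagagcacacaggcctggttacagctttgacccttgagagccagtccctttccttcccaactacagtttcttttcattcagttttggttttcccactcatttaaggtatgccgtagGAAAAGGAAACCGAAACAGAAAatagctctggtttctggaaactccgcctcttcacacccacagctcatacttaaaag
Bst2: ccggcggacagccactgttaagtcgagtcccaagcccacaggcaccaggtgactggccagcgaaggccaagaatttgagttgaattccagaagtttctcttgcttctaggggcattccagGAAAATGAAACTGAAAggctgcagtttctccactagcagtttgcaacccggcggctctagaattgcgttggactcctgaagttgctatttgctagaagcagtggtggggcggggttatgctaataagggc
Isg15 held 3 matches, 78, 72 and 66 bases before the start, and Bst2 held 2, 130 and 124 bases before it. The element stood in 9 of 32 promoters of the interferon and antigen presentation list (28.1%, 27 of 37 genes in the table), against 2.98% of all promoters, and in none of those of the embryonic contractile list. This is a property of the genes listed and says nothing of the factor bound in these muscles. In all 11 letter strings were searched; AAGGTCA, the half-site of estrogen-related receptors, stood in 1 of 29 promoters of the fatty acid oxidation list (3.45%), against 4.08% of all promoters.

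**Figure D3:**
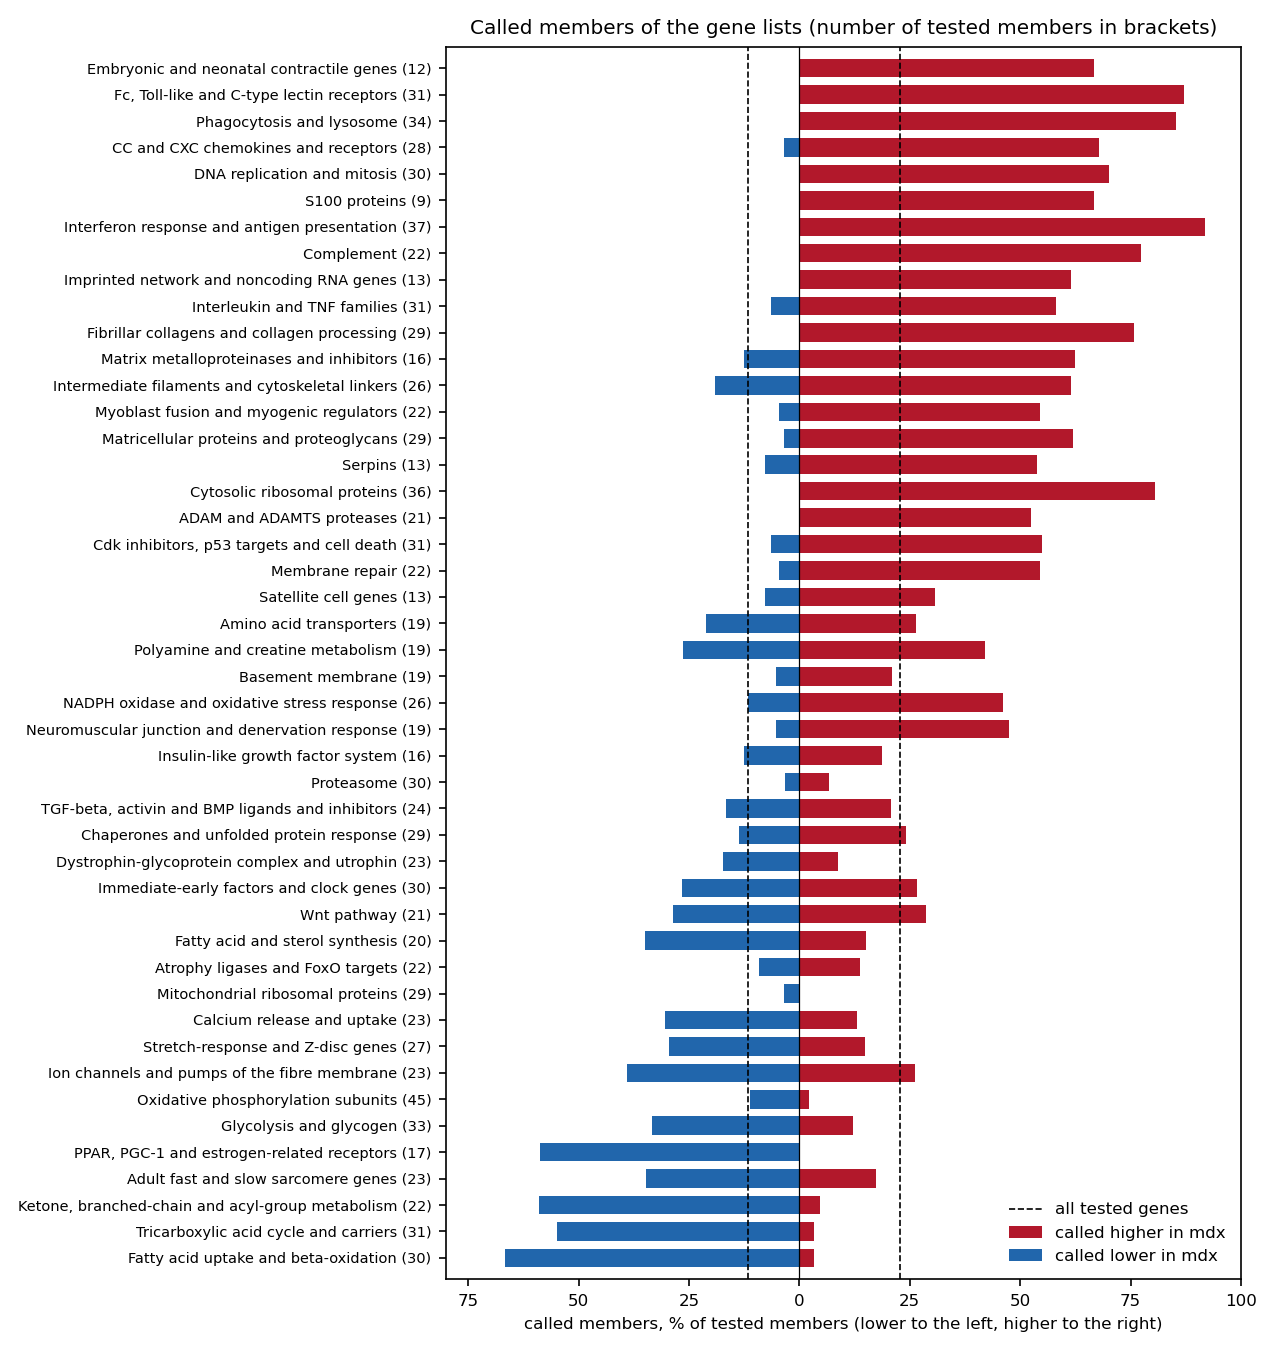
Share of the tested members of each list (number in brackets) that was called higher in mdx (red, to the right) or lower in mdx (blue, to the left), with lists in the order of their median fold change and dashed lines at the shares over all tested genes, 22.8% higher and 11.6% lower. Immune, mitosis and embryonic lists, fibrillar collagens, matricellular proteins and ribosomal proteins lie far past the right line, basement membrane and TGF-beta lists do not reach it, and fatty acid, ketone, tricarboxylic acid cycle and PPAR lists lie far past the left line.

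Genes of DNA replication and mitosis rose from low levels. Of 34 listed genes 30 were tested, with 21 called higher, 0 lower and a median of 1.08, and all 21 were highest in mdx 2. Top2a, a topoisomerase of dividing cells, had 2.92, 9.04 and 4.55 FPKM in mdx pools, against 0.521, 0.473 and 0.668 FPKM in WT pools (1.96 ± 0.30, limma adjusted p = 0.00261). Cdk1, the kinase of entry into mitosis, had 3.39, 8.68 and 5.19 FPKM in mdx pools, against 0.414, 0.704 and 0.810 FPKM in WT pools (1.97 ± 0.26, limma adjusted p = 0.00165). In both mdx 1 was the lowest mdx pool and still several times above WT. Cell-cycle inhibitors rose beside them. Of 32 inhibitor, p53-target and cell death genes 31 were tested, with 17 called higher, 2 lower and a median of 0.47. Cdkn1a, the inhibitor p21, had 50.7, 63.6 and 66.5 FPKM in mdx pools, against 5.39, 13.6 and 9.77 FPKM in WT pools (2.60 ± 0.27, limma adjusted p = 0.000773). Cdkn2a, the p16 and Arf locus, had 3.51, 2.81 and 1.99 FPKM in mdx pools, against 0, 0.138 and 0.0866 FPKM in WT pools (limma adjusted p = 0.000528). Apaf1, the scaffold of the apoptosome, rose by 1.499 ± 0.16 and Ripk3, a kinase of necroptosis, by 0.98 ± 0.20.

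The pools of mdx differed among themselves more than the pools of WT did. The median SD of log2(FPKM + 1) over 3 pools was 0.176 in mdx and 0.110 in WT, and it was the larger in mdx for 69.5% of tested genes. The highest mdx pool of the 2880 higher genes was mdx 2 for 1661, mdx 3 for 852 and mdx 1 for 367, and of the 1466 lower genes it was mdx 3 for 988, mdx 1 for 308 and mdx 2 for 170. Over all tested genes it was mdx 3 for 6466, mdx 2 for 4030 and mdx 1 for 2151, so mdx 3 was the highest mdx pool for many genes whether called or not. Among the 3 mdx libraries mdx 3 also had the lowest mitochondrial share of FPKM, 25.9%, against 35.7% in mdx 1 and 33.4% in mdx 2. A large part of that share was 1 uncertain entry, mt-Atp8, listed at 0 in every WT pool. It had 125300, 100200 and 38260 FPKM in mdx pools, of summed FPKM of 728234, 604701 and 686823. The order of the mdx pools in mitochondrial share therefore rests on that entry and is not read. The part of mitochondrial genes in these counts was not tested. In mdx 2 summed macrophage markers were the highest of all libraries (1740 FPKM) and summed fibre markers the lowest: without Acta1 the fibre markers came to 106500, 70080 and 109000 FPKM in mdx pools, against 121500, 112900 and 100500 FPKM in WT pools. Of the 12 fibre markers 0 were called higher and 4 lower, and 1 was called lower without any 1 of the WT pools. How far the number of fibres or of macrophages in a pool bears on other genes was not tested.

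**Figure D4:**
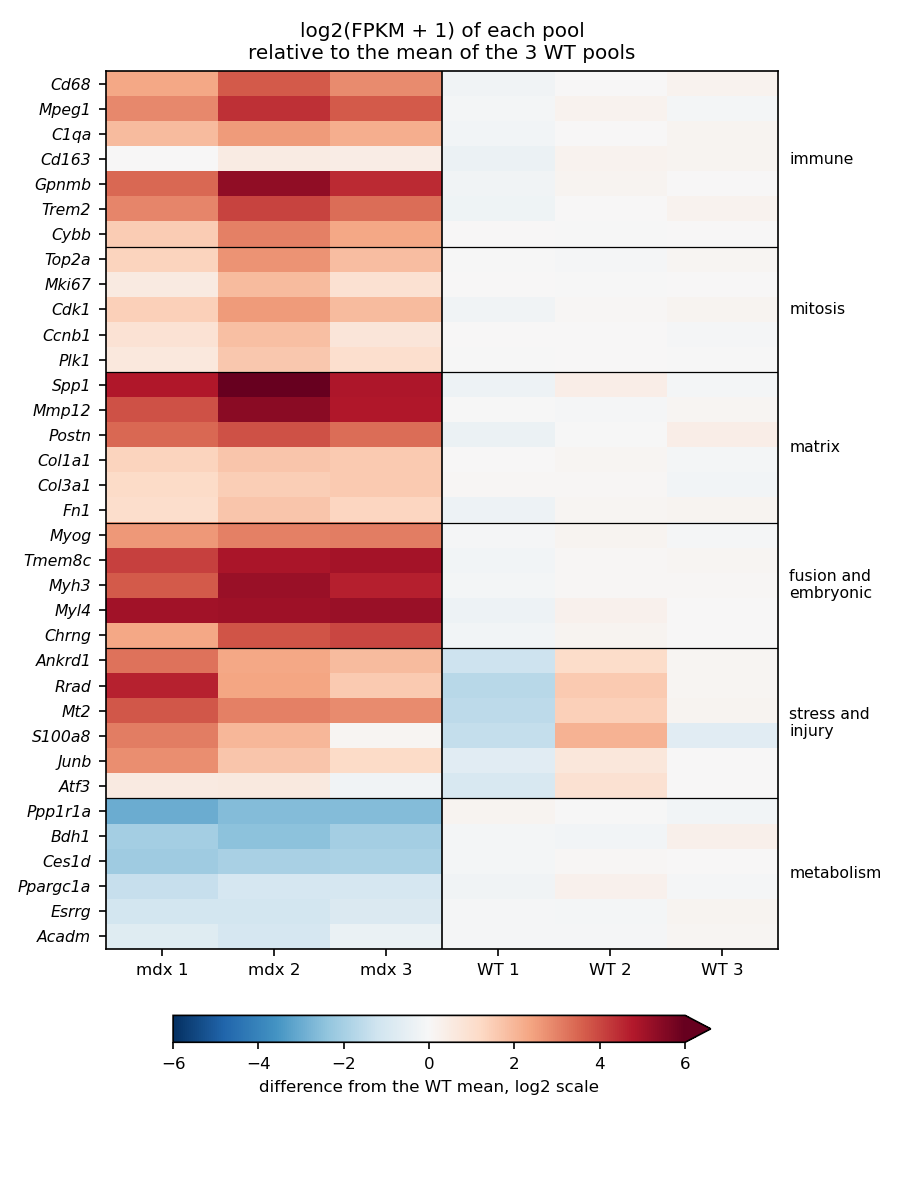
Difference of log2(FPKM + 1) in each pool (columns, mdx left) from the mean of the 3 WT pools for genes of 6 themes (rows), red for higher and blue for lower; the colour scale ends at 6, which Spp1 exceeds in mdx 2. Immune and mitosis genes are highest in mdx 2, most stress and injury genes are highest in mdx 1 and spread within WT, with WT 1 low and WT 2 high, and metabolic genes are lower in all mdx pools.

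A small set of stress and injury genes ordered the pools in another way, and was picked for that after its values were seen. Mt2, a metallothionein, had 1317, 791 and 690 FPKM in mdx pools, against 31.7, 263 and 109 FPKM in WT pools (3.19 ± 0.66, limma adjusted p = 0.00804). Rrad, a small GTPase of injured muscle, had 151, 31.5 and 17.4 FPKM in mdx pools, against 0.988, 17.3 and 5.70 FPKM in WT pools; mdx 3 and WT 2 were almost level, and its call (limma adjusted p = 0.0441) was lost under some alternatives, with 0.127 at most. Junb, an immediate-early transcription factor, had 42.0, 19.2 and 13.1 FPKM in mdx pools, against 2.86, 8.89 and 5.47 FPKM in WT pools (1.88 ± 0.44, limma adjusted p = 0.0139, at most 0.0541 among the alternatives). Atf3, a stress factor, was not called, with 7.99, 8.22 and 4.35 FPKM in mdx pools, against 2.22, 10.8 and 5.40 FPKM in WT pools. Within each group the order was shared by Mt2, Rrad and Junb: mdx 1 was the highest mdx pool, WT 2 the highest WT pool and WT 1 the lowest.

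Immediate-early and clock genes were read as 1 list of 33, of which 30 were tested, 8 called higher (5 under quantile normalization) and 8 lower, with a median of -0.09. The 8 higher genes were immediate-early factors and all of them were highest in mdx 1. Egr1 had 12.9, 7.16 and 6.06 FPKM in mdx pools, against 2.39, 3.46 and 2.75 FPKM in WT pools (1.27 ± 0.24, limma adjusted p = 0.00593). Apart from the nuclear receptor Nr4a1 (limma adjusted p = 0.048, at most 0.137 among the alternatives), the lower genes belonged to the clock and its outputs. Nr1d1, a repressor in the clock, had 35.03, 20.3 and 22.6 FPKM in mdx pools, against 60.1, 49.7 and 46.0 FPKM in WT pools (-1.003 ± 0.20, limma adjusted p = 0.00751). The lowest WT pool stood above the highest mdx pool. The repressors Nr1d2 and Bhlhe41 fell by 0.59 and 0.76, while the core genes Arntl, Clock, Cry1 and Per2 were not called. The hour of dissection is not given.

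Growth factors and imprinted genes included 1 very large rise. Igf2, a fetal growth factor that is imprinted and made during muscle regeneration, had 94.6, 104 and 135 FPKM in mdx pools, against 5.56, 6.56 and 7.66 FPKM in WT pools (3.88 ± 0.16, limma adjusted p = 2.76e-05). Igf1 was not called, with 15.2, 22.9 and 18.7 FPKM in mdx pools, against 20.3, 15.8 and 15.9 FPKM in WT pools. Insr, the insulin receptor, and Irs2, its substrate, fell by 0.55 ± 0.11 and 0.61 ± 0.12. In the insulin-like growth factor list of 18 genes 16 were tested, 3 called higher and 2 lower, with a median of 0.15. In the imprinted list of 18 genes 13 were tested, 8 called higher and 0 lower, with a median of 0.95. Besides Igf2 these were Peg3, Mest, Grb10, Cdkn1c, Zim1 and Plagl1, higher by 0.95 to 1.70, and the noncoding RNA Airn, whose call was lost under some alternatives (limma adjusted p = 0.0495, at most 0.206). The other tested members, such as Dlk1, Rian and Ndn, were not called.

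Many genes of fatty acid, ketone and tricarboxylic acid metabolism fell by small amounts in mdx muscle. As deposited, the lower calls of oxidative phosphorylation and mitochondrial ribosomal genes did not stand above the background of 11.6%. For oxidative phosphorylation this depended on the scaling, as given below. Of 30 fatty acid uptake and oxidation genes, all tested, 1 was called higher and 20 lower (13 lower without WT 2 and 11 without WT 3), with a median of -0.54. Cpt1b, the muscle enzyme that commits fatty acids to mitochondria, had 113, 96.4 and 114 FPKM in mdx pools, against 196, 207 and 232 FPKM in WT pools (-0.97 ± 0.12, limma adjusted p = 0.00134). Cpt2, the next enzyme of that shuttle, fell by 0.87 ± 0.13, Acadm, the medium-chain dehydrogenase, by 0.72 ± 0.16 and Ucp3, the muscle uncoupling protein, by 0.87 ± 0.13. The exception was Ucp2, the uncoupling protein of immune and other cells, with 95.5, 196 and 120 FPKM in mdx pools, against 22.6, 38.9 and 32.5 FPKM in WT pools (2.06 ± 0.28, limma adjusted p = 0.00176); like the macrophage markers it was highest in mdx 2.

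Ketone, branched-chain and acyl-group genes numbered 23, of which 22 were tested, 1 called higher and 13 lower, with a median of -0.48; lower calls numbered 5, 7 and 6 without WT 1, WT 2 and WT 3. Bdh1, which interconverts ketone bodies, had 2.09, 1.33 and 2.06 FPKM in mdx pools, against 10.5, 10.2 and 14.7 FPKM in WT pools (-2.17 ± 0.17, limma adjusted p = 0.000279). Ces1d, a carboxylesterase that hydrolyses lipids, had 3.80, 4.49 and 4.65 FPKM in mdx pools, against 18.7, 21.2 and 20.4 FPKM in WT pools (-1.99 ± 0.11, limma adjusted p = 4.77e-05). Both stood among the largest falls of all. The regulators of these genes, PPARs, PGC-1 and the estrogen-related receptors, numbered 18, with 17 tested, 0 called higher and 10 lower (6 without WT 2), and a median of -0.41. Ppara, a fatty acid sensor, had 1.24, 1.05 and 1.97 FPKM in mdx pools, against 4.33, 5.55 and 5.74 FPKM in WT pools (-1.37 ± 0.17, limma adjusted p = 0.00119). Ppargc1a, the coactivator PGC-1 alpha, had 5.33, 7.26 and 7.25 FPKM in mdx pools, against 13.2, 18.6 and 14.8 FPKM in WT pools (-1.11 ± 0.16, limma adjusted p = 0.00201), and Esrrg and Perm1, which act with it, fell by 1.02 ± 0.13 and 1.17 ± 0.17. Tfam and Nrf1, which drive mitochondrial DNA and respiratory genes, were not called.

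The tricarboxylic acid cycle and its carriers had 32 listed genes, 31 of them tested, with 1 called higher and 17 lower and a median of -0.52; lower calls numbered 10, 7 and 5 without WT 1, WT 2 and WT 3. Slc25a12, the aspartate and glutamate carrier, had 265, 196 and 250 FPKM in mdx pools, against 412, 442 and 429 FPKM in WT pools (-0.86 ± 0.14, limma adjusted p = 0.00334). Oxidative phosphorylation subunits were called lower about as often as all genes on the values as deposited, but not under every setting. Of 45 genes, all tested, 1 was called higher and 5 lower, with a median of -0.33, and the lower calls depended on the settings: 15 without mdx 3, 1, 0 and 1 without WT 1, WT 2 and WT 3, 14 under quantile normalization and 17 under the median ratio. Mdx did not overlap WT on the lower side for 18 of the 45, against 19.2% of all tested genes, so by this count these subunits stood above the background. Over all tested genes lower calls also rose under the other scalings, from 1466 to 2625 under quantile normalization and 2228 under the median ratio. Mitochondrial ribosomal proteins were called lower in 1 and higher in 0 of 29 tested genes of 30 (median -0.17; 6 lower without mdx 3 or under the median ratio, and 0 without any other 1 library).

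Glycolysis and glycogen genes numbered 34, of which 33 were tested, 4 called higher and 11 lower, with a median of -0.41; lower calls numbered 6 without mdx 1, WT 1 or WT 2, 5 without WT 3 and 17 under the median ratio. The 4 higher genes were the widely expressed isoforms Pgam1, Eno1, Hk1 and Pfkp. Ppp1r1a, an inhibitor of protein phosphatase 1 that acts on glycogen metabolism, had the largest fall among named genes, with 2.43, 3.51 and 3.39 FPKM in mdx pools, against 29.3, 26.0 and 23.0 FPKM in WT pools (-2.72 ± 0.14, limma adjusted p = 4.77e-05). Ldhb, the heart form of lactate dehydrogenase, had 45.3, 38.7 and 46.4 FPKM in mdx pools, against 84.3, 81.5 and 92.9 FPKM in WT pools (-0.97 ± 0.11, limma adjusted p = 0.00107), while the muscle form Ldha was not called. In lipid synthesis 20 of 21 listed genes were tested, 3 called higher and 7 lower, with a median of -0.15. Scd1, a fatty acid desaturase, had 17.7, 15.6 and 23.3 FPKM in mdx pools, against 32.8, 59.5 and 83.1 FPKM in WT pools (-1.503 ± 0.31, limma adjusted p = 0.00784).

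**Figure D5:**
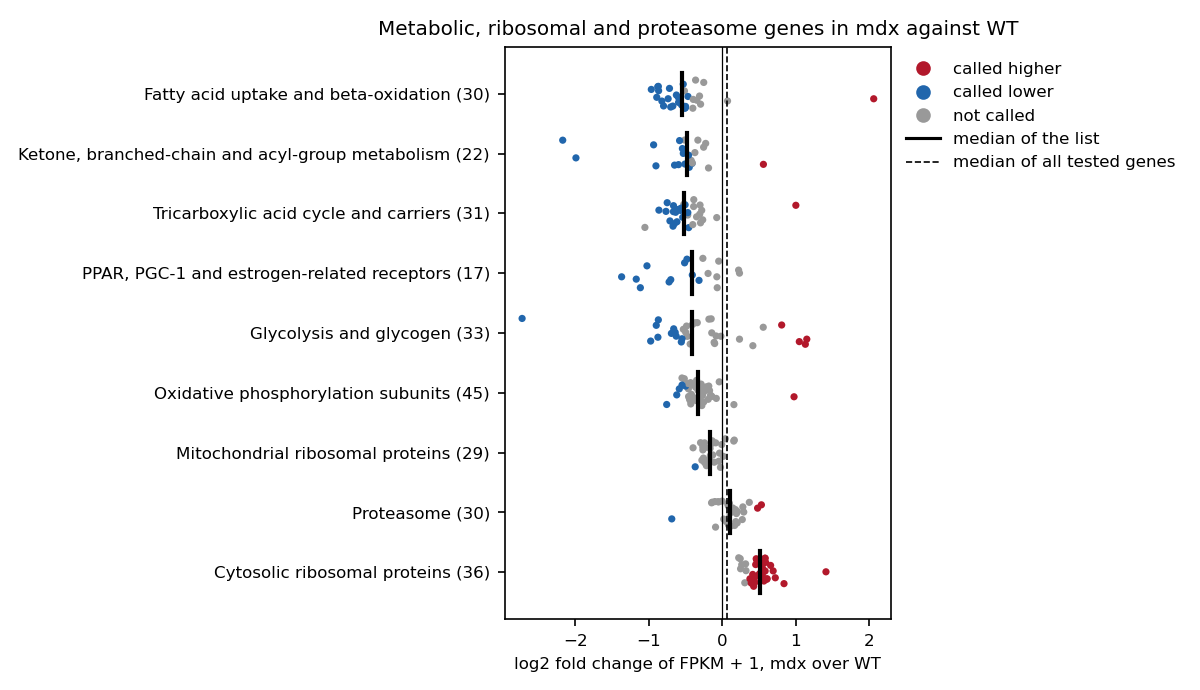
Each point is the log2 fold change (mdx over WT, on the FPKM + 1 scale) of 1 tested member of 9 lists, coloured by call; thick ticks mark list medians and the dashed line the median of all tested genes (0.07). The 7 metabolic and mitochondrial lists have medians from -0.54 to -0.17, proteasome genes lie at 0.11, and cytosolic ribosomal proteins at 0.52.

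Polyamine and creatine genes showed opposite moves within a pathway. Of 21 listed genes 19 were tested, with 8 called higher, 5 lower and a median of 0.27. Amd1, the decarboxylase that feeds polyamine synthesis, had 36.9, 27.9 and 63.9 FPKM in mdx pools, against 215, 119 and 169 FPKM in WT pools (-1.98 ± 0.31, limma adjusted p = 0.00288), and Smox, which oxidises spermine, fell by 1.32 ± 0.25. Sat1, the acetyltransferase that breaks polyamines down, had 59.0, 75.8 and 63.0 FPKM in mdx pools, against 22.9, 24.3 and 22.7 FPKM in WT pools (1.46 ± 0.12, limma adjusted p = 0.000339). Both enzymes of creatine synthesis rose: Gatm had 17.2, 23.9 and 23.6 FPKM in mdx pools, against 3.89, 3.15 and 2.95 FPKM in WT pools (2.37 ± 0.15, limma adjusted p = 0.000111), and Gamt rose by 1.43 ± 0.14. Ckmt2, the mitochondrial creatine kinase of muscle, fell by 1.26 ± 0.22. Of 21 amino acid transporter genes 19 were tested, 5 called higher and 4 lower, with a median of 0.27; Slc38a1, a glutamine carrier, rose by 1.42 ± 0.17, and Slc7a2, an arginine carrier, fell by 0.91 ± 0.15.

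Genes of protein synthesis and quality control were mixed except for ribosomal proteins. All 36 cytosolic ribosomal protein genes listed were tested, with a median of 0.52. Of them 29 were called higher (25 under the median ratio and 17 without WT 2) and 0 lower. In all 36 every mdx pool exceeded every WT pool that had a value, against 31.5% of all tested genes. Rpl13 was listed at 0 in WT 1, treated as failed, so it was compared with WT 2 and WT 3 only. Rpl3 had 68.7, 97.5 and 80.2 FPKM in mdx pools, against 26.5, 28.9 and 35.01 FPKM in WT pools (1.41 ± 0.16, limma adjusted p = 0.000945), far more than the 0.84 of the next, Rps19. Its muscle-specific relative Rpl3l, looked up after those values were seen, had 185, 135 and 199 FPKM in mdx pools, against 248, 241 and 260.4 FPKM in WT pools (-0.55 ± 0.16, limma adjusted p = 0.0297, at most 0.095 among the alternatives). Near-identical pseudogenes make single ribosomal genes uncertain. Of 30 chaperone and unfolded protein genes 29 were tested, 7 called higher (4 without WT 1) and 4 lower, with a median of 0.06 (-0.03 under the median ratio). Manf and Sdf2l1, proteins of the endoplasmic reticulum, rose by 0.87 ± 0.13 and 1.19 ± 0.22, and the heat shock gene Hspa1a was not called, with 0.561, 0.846 and 0.324 FPKM in mdx pools, against 0.777, 7.15 and 3.56 FPKM in WT pools. Of 30 proteasome genes, all tested, 2 were called higher (6 without mdx 2) and 1 lower, with a median of 0.11; the fall was that of Psme4, a proteasome activator (-0.69 ± 0.15).

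Markers of other cell types were summed to place the results above. Endothelial markers numbered 12, all tested, with 0 called higher and 5 lower (3 without WT 2), and their sum was 179, 169 and 189 FPKM in mdx pools, against 204, 240 and 237 FPKM in WT pools. Flt1 and Kdr, receptors of vascular growth factor, fell by 1.15 ± 0.20 and 0.64 ± 0.12. Of 11 smooth muscle and pericyte markers 10 were tested, with 1 called higher, the Acta2 given above, and 4 lower; Rgs5, which marks pericytes, had 60.5, 60.9 and 79.5 FPKM in mdx pools, against 122, 126 and 121 FPKM in WT pools (-0.88 ± 0.13, limma adjusted p = 0.00234). Of 10 Schwann cell markers 4 were tested, 0 called higher and 2 lower, and their sum was 38.9, 44.4 and 47.2 FPKM in mdx pools, against 48.3, 50.7 and 50.4 FPKM in WT pools. Fibro-adipogenic progenitor markers were called higher in 5 and lower in 0 of 12, with sums of 1355, 1227 and 1311 FPKM in mdx pools, against 1174, 1202 and 1203 FPKM in WT pools; Pdgfra, which defines these cells, had 9.76, 11.6 and 10.2 FPKM in mdx pools, against 7.47, 8.00 and 6.84 FPKM in WT pools (0.45 ± 0.11, limma adjusted p = 0.0147, at most 0.0637 among the alternatives).

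Adipocyte markers overlapped between the groups, with sums of 848, 989 and 885 FPKM in mdx pools, against 650, 737 and 1152 FPKM in WT pools, and 0 of 9 tested were called higher and 1 lower. Erythroid markers were called higher in all 5 tested of 8 listed, with sums of 1069, 698 and 825 FPKM in mdx pools, against 362, 339 and 469 FPKM in WT pools, so no mdx pool met a WT pool. Most lymphocyte markers stayed under the minimum. Of 14 T and NK cell markers only Cd4, which macrophages can also express, reached the minimum and was called higher (0.81 ± 0.18), and 7 were called higher when members under the minimum were tested too. The T and NK sum was 5.90, 6.56 and 7.78 FPKM in mdx pools, against 1.69, 2.56 and 2.06 FPKM in WT pools, with no overlap. Of 7 B and plasma cell markers 0 reached the minimum, and their sum was 1.76, 2.13 and 2.18 FPKM in mdx pools, against 1.23, 1.81 and 1.32 FPKM in WT pools. Trac, which defines T cells, and Ighm, which defines B cells, were listed at 0 in all 6 libraries, which in this table need not mean low expression. Of 8 dendritic cell markers 5 were tested, 3 called higher and 0 lower, of 10 eosinophil and mast cell markers 4 were tested, 0 called higher and 1 lower, and of 8 tendon markers 6 were tested, 2 called higher and 0 lower. What blood, vessel, nerve or fat in a dissected muscle adds to the values of other genes was not tested.

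Among the 10 largest falls were genes outside the lists. Dusp26, a protein phosphatase, had 3.35, 2.35 and 3.91 FPKM in mdx pools, against 19.03, 21.9 and 20.5 FPKM in WT pools (-2.37 ± 0.15, limma adjusted p = 0.000111). Mettl21c, a lysine methyltransferase of muscle, had 49.2, 29.6 and 42.3 FPKM in mdx pools, against 158, 93.7 and 156 FPKM in WT pools (-1.72 ± 0.25, limma adjusted p = 0.00209). Slc15a5, a member of the peptide carrier family, had 0.687, 0.284 and 0.562 FPKM in mdx pools, against 6.81, 5.404 and 10.7 FPKM in WT pools (-2.48 ± 0.22, limma adjusted p = 0.000435). In each of the 3 the lowest WT pool stood well above the highest mdx pool. Efcab6 and BC048679 fell by 1.85 ± 0.15 and 2.37 ± 0.24.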

How the data were processed

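Total RNA of pooled quadriceps was sequenced, and groups were read from the label of each library. The authors deposited a table of 43628 genes, with 1 column of FPKM for every library per the file headers; the deposited test columns were not used. Demultiplexing with bcl2fastq 2.15.0.4 and trimming with Trim Galore 0.3.7 are named in the submitters' processing notes, as are Cufflinks 2.2.1 with Cuffdiff and Cuffnorm, TopHat2 2.0.13 and the build GRCm38. Library scaling and strand use are not given in the sources used here, so overlapping and antisense genes are uncertain. Whole reads could not be recovered from the FPKM steps, so depth is unknown and no interval for counting error is given.

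Of these genes 12657 reached 1 FPKM in 2 or more of the 6 libraries. An exact 0 in a gene reaching 10 FPKM was set to missing (50 genes, 37 of them tested, 11 called), and 10 genes with fewer than 2 values in a group dropped out. The scale was log2(FPKM + 1). The fit was made with limma 3.58.1 under R 4.3.3, with a mean-variance trend and no covariate, on 6 libraries because dy2J is on another strain, with Benjamini-Hochberg adjustment and a threshold of 0.05. On simulated data of 12496 genes at the spread of this comparison, 100 genes were changed 2-fold, 100 were changed 4-fold and 12296 were left unchanged. The fit called 73% of genes changed 2-fold, 98% of those changed 4-fold and 0.0488% of unchanged genes. The changed genes left out those at low level, and far fewer changed than the 4346 called in the data. These rates therefore need not hold for the real comparison. Sums came from pandas 2.3.3 and numpy 2.4.6 and figures from matplotlib 3.10.9, all under Python 3.11.15.

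Members were described through 60 lists (46 of pathways, 14 of cell types) with 1278 symbols, 1276 found and 1158 tested; 8673 of 8987 entries without a symbol were named from GENCODE M21. Lists and members were chosen with earlier results of these data known, so lists have counts and medians and no test. Named genes are Dmd, the 10 largest rises and falls among called genes with no overlap, and of each list the 2 called members with the largest rise and the 2 with the largest fall; other list members were picked after their values were seen, and some genes are not reported here. Alternatives were other pseudocounts (0.1, 0.5), minimums, scalings and treatments of zeros, all 8 libraries, no trend, a replicate block and each library left out; leaving out the chromosome 8 stretch of WT 1 was chosen after seeing the data.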

Additional observations from a re-analysis of the deposited data

How the results depend on the processing

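The 2880 higher calls became 1531 when a mean of 5 FPKM was asked for, where fewer genes were tested, and 2015 to 2890 with 1 library left out. The 1466 lower calls became 2625 under quantile normalization, 2228 under the median ratio and 834 to 1803 with 1 library left out (834 without WT 2 and 921 without WT 3); the cause was not tested. Of the called genes 1635 higher and 712 lower kept direction and call in each of the 18 alternatives that tested them. The gene Mylpf had -0.15 as deposited, 0.76 under quantile normalization, where it was called higher, and -0.272 to 0.073 with 1 library left out (0.073 without mdx 2), and the gene Fabp4 had 0.07 as deposited, -0.023 under the median ratio and -0.001 to 0.194 with 1 library left out (-0.001 without WT 1); neither was called as deposited. List counts of 1 or 2 called genes changed in many lists when 1 library was left out. Deviations from the group means correlated at 0.108, 0.158 and 0.0249 between same-numbered pools, and at -0.224 to 0.145 between differently numbered ones. With 3 pools a group, whose deviations cancel, such values cannot settle whether the numbers pair the pools. With a replicate block 2904 genes were called higher and 1476 lower. Depth is unknown, and pools hide the spread between mice.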
